A study of Rattus norvegicus with 20 samples.

Results

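Insulin-producing INS-1 cells, derived from a rat insulinoma, were exposed to C4b-binding protein (C4BP) without islet amyloid polypeptide (IAPP) or to the solvent dimethyl sulfoxide (DMSO) alone, and their mRNA was compared. The 2 groups make up 10 of the 20 arrays of the series, 5 with the word C4BPD in the sample title and 5 with the word DMSO, chosen by that word and not by any measured value. The other 10 arrays carry the words IAPP and C4BP, which are read as IAPP alone and IAPP with C4BP. C4BPD is not spelled out in the labels, so C4BP without IAPP is its likely reading, and whether those wells also held DMSO is not given in the sources used here. All 4 groups were wells of the same line after 10 h of treatment, with C4BP at 0.6 uM in the series description (300 ug/ml in the sample fields), IAPP at 77 uM (also 300 ug/ml) and DMSO at 1%. How the C4BP was prepared is not given in the sources used here.

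Cells had been kept as 5 clones over 10 passages and seeded at 100000 per well, about 48 h before treatment. No title says that its number, 1 to 5, stands for a clone, so p-values measure the spread between these wells, which may be technical. The treated-with field of the samples goes against the title word in most arrays: the 2 match in 2 of the 10 arrays compared here and in 3 of all 20. Grouped by that field, 0 genes passed the threshold used below (881 had an unadjusted limma p under 0.05), and the log2 difference of Id1, one of the largest by title, was -0.73. Everything that follows is a comparison of arrays by title word. That a grouping gives more calls does not show that its labels are the true treatments. The titles also begin with a running number in which C4BPD always stands directly before DMSO, so that place in the series and treatment cannot be told apart.

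C4BP is a large plasma glycoprotein best known as a soluble inhibitor of the classical and lectin pathways of complement, and it also binds amyloid fibrils and other ligands. Genes of several signalling systems recur below, and only their mRNA was measured. Bone morphogenetic proteins (BMPs) bind pairs of serine/threonine kinase receptors, which phosphorylate SMAD1, SMAD5 and SMAD9. These enter the nucleus with SMAD4 and switch on ID genes, whose products block basic helix-loop-helix transcription factors, together with built-in inhibitors such as SMAD6, SMAD7 and the decoy receptor BAMBI. The integrated stress response raises the transcription factor ATF4, which drives amino acid uptake, serine and asparagine synthesis and tRNA charging. The unfolded protein response, through ATF6 and XBP1, supplies chaperones to the endoplasmic reticulum (ER), which in beta cells carries a heavy load of proinsulin and pro-IAPP.

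Expression was read on Affymetrix Rat Gene 2.0 arrays as linear intensities, 1 value per probe set, and 18166 genes with a probe set of their own were tested on the log2 scale. Array medians of the 10 arrays lay between 174.1 and 181.5, log2 values of any 2 of the 20 arrays correlated at 0.985 to 0.996, and no 2 arrays were identical. Beta-cell markers were bright: all 9 measured ones lay above the median probe set, Iapp at 11854.5 in C4BPD and Slc2a2, the glucose transporter GLUT2, among the brightest. Summed over those 9, the arrays ran from 52169 to 55970 in DMSO and from 52152 to 55901 in C4BPD. The alpha-cell list also had 5 of its 6 measured members above the median probe set, Gcg included, while 0 of 10 macrophage and leukocyte markers were. None of the members of the 8 cell type marker lists passed the test, and each list's summed level overlapped between the groups. In RNA from whole wells, fewer cells of a type and less RNA per cell cannot be told apart.

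The largest differences between cells with C4BP and solvent cells were in single genes, among them BMP targets and metallothioneins. Id3 was 4.74-fold and Id1 3.79-fold higher, and the metallothioneins Mt1 and Mt1f were 2.22-fold and 2.01-fold higher. Plekhg6, of neither kind, was 2.83-fold higher, and most members of the BMP target and metallothionein lists did not pass. Further increases belonged to amino acid supply and the integrated stress response, led by Chac1, Trib3 and Slc1a4. The lower genes changed less, at most by 0.66 on the log2 scale, and included ER chaperones, genes of cholesterol synthesis, hypoxia-linked genes and the transferrin receptor Tfrc. In a linear model of all 20 arrays (limma, two-sided, Benjamini-Hochberg adjusted p under 0.05), 351 of 18166 genes passed (1.93%), 212 of them higher in C4BPD (1.17%) and 139 lower (0.765%). Every count of list members below is to be read beside these shares. The lists were chosen with earlier results of these data known, so a count above its share is no test of a list.

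Differences were small in most of these genes. The median absolute log2 difference of the 351 was 0.276, and 26 reached 0.5, of which 23 were higher and 3 lower. The 6 genes that changed at least 2-fold, Id3, Id1, Plekhg6, Mt1, Chac1 and Mt1f, were all higher. Over all genes the median log2 difference was -0.009, and 97.7% lay within 0.25 of 0. The 5 C4BPD arrays did not overlap the 5 DMSO arrays in 303 of the 351 genes (86.3%), against 694 of all genes (3.82%), and 347 of the 351 had the same sign within every title number. The 351 were called on these same arrays, so both counts follow largely from the call and are no separate evidence for it. The count of genes was itself unsteady: without the fifth C4BPD array 217 passed, without the second 230, and without the fifth DMSO array 233.

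**Figure D1:**
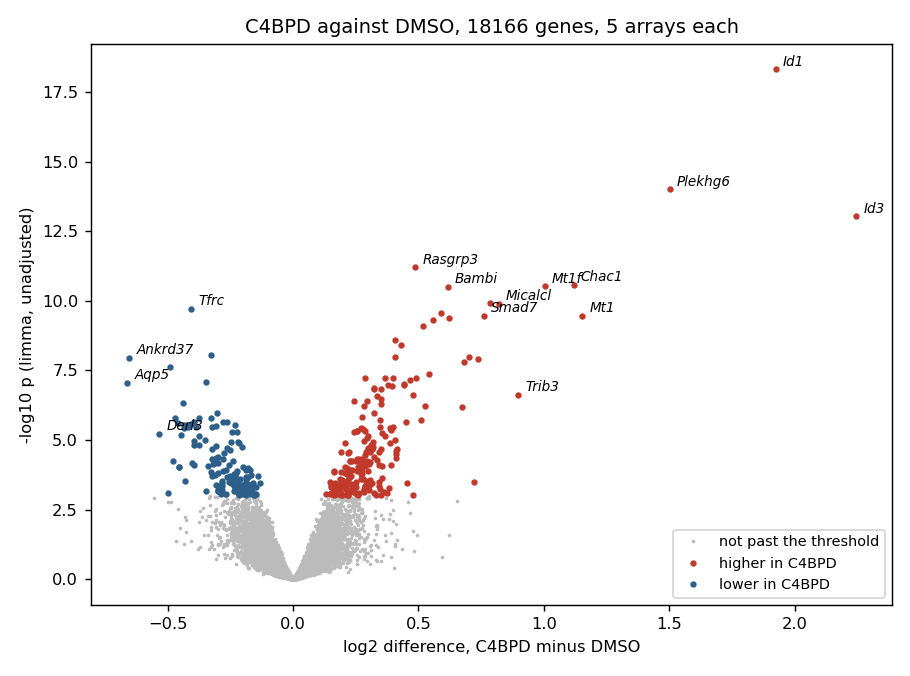
Each point is 1 of 18166 genes; the x axis is the log2 difference of C4BPD minus DMSO (5 arrays each) and the y axis the -log10 of the unadjusted limma p. Genes past an adjusted p of 0.05 are red (212 higher) or blue (139 lower); Id1, Id3 and Plekhg6 stand apart on the right, and no gene has a difference below -0.66.

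Id3 and Id1 carried the largest changes. Id3 had intensities of 262.4, 352.2, 301.9, 405.0 and 416.7 in the 5 DMSO arrays and of 1324, 1792, 1424, 1831 and 1818 in the 5 C4BPD arrays. The dimmest C4BPD array was far above the brightest DMSO array. The log2 difference was 2.24 (SE 0.13, limma adjusted p = 5.61e-10, n = 5 per group). Id1 read 594.6, 671.3, 720.9, 633.1 and 712.5 in DMSO against 2460, 2634, 2407, 2396 and 2727 in C4BPD, with a mean of 666 ± 53.4 (SD) against 2525 ± 148. Its log2 difference was 1.92 (SE 0.06, adjusted p = 8.93e-15), the smallest p of all genes tested. The other 2 ID genes did not pass. Id2 stood at 137 ± 2.34 in DMSO and 138 ± 4.17 in C4BPD, a level under the median probe set and a log2 difference of 0.002. Id4 had 1707 ± 201 in DMSO and 2088 ± 160 in C4BPD (log2 difference 0.29), was higher in C4BPD within each of the 5 title numbers, overlapped between groups and missed the threshold (adjusted p = 0.0571).

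Feedback inhibitors of the pathway were higher beside the ID genes. Bambi, a receptor-like protein without a kinase domain that blocks BMP and TGF-beta receptors, read 458.4, 478.3, 508.9, 492.5 and 502.5 in DMSO and 674.9, 755.6, 756.9, 758.1 and 798.2 in C4BPD, with no overlap. Its log2 difference was 0.62 (SE 0.05, limma adjusted p = 7.93e-08). Smad7, the inhibitory SMAD that displaces receptor-regulated SMADs, was dim, at 99.6 ± 9.11 in DMSO and 169 ± 16.7 in C4BPD, and 1.69-fold higher (adjusted p = 4.81e-07). Its sister Smad6 was 218 ± 15.1 and 241 ± 9.96, a log2 difference of 0.14 that did not pass (adjusted p = 0.194). Among the SMADs that carry the BMP signal, Smad9 was 1060 ± 61.0 in DMSO and 1595 ± 83.7 in C4BPD, with 5 of 5 C4BPD arrays above every DMSO array (log2 difference 0.59, adjusted p = 4.34e-07). Smad1 and Smad5 had differences of 0.09 and -0.04 and did not pass.

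Of 25 measured BMP-SMAD target genes, 6 were higher and 0 lower, against 1.17% and 0.765% of all genes. They were Id1, Id3, Smad7, Bambi, Smad9 and Atoh8, a helix-loop-helix factor. Most of the list did not pass: its median log2 difference was 0.017, against -0.009 over all genes, and targets such as Hey1, Msx1, Msx2, Runx2 and Hamp lay between -0.12 and 0.03. Atoh8 was 252 ± 20.2 and 319 ± 20.2 (log2 difference 0.34, limma adjusted p = 0.0271), and no longer passed in 6 of the 10 fits without 1 array (highest adjusted p 0.0798, without the fifth DMSO array). The 12 measured TGF-beta and activin target genes had none past the threshold (median -0.04). Of 13 basic helix-loop-helix genes, listed as possible partners of ID proteins, Bhlhe40 and Bhlha15 were lower, by 0.26 and 0.34. The other 11 did not pass, among them Tcf3 (-0.04), Tcf4 (0.07), Tcf12 (0.007) and Neurod1 (0.01). Bhlha15 did not pass in 8 of the 10 fits without 1 array (highest adjusted p 0.117) and Bhlhe40 in 2 (0.064 without the third C4BPD array).

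Among receptors and ligands few members passed. Acvr1c, the type I receptor ALK7 for nodal and activin B, had 547.0, 589.0, 640.5, 658.9 and 625.2 in DMSO and 810.7, 1049, 961.7, 1005 and 1092 in C4BPD. All C4BPD arrays exceeded all DMSO arrays, by 0.68 on the log2 scale (SE 0.07, limma adjusted p = 1.15e-05). With Bambi it made 2 of 13 measured receptors, and the BMP receptor gene Bmpr1a, at 0.04, did not pass. Of 25 ligands and extracellular inhibitors only Bmp3, a BMP family member that opposes BMP signalling, passed. It was lower, from 1329 ± 133 to 994 ± 78.6 (log2 difference -0.42, adjusted p = 0.00086). Transcripts of Bmp2, Bmp4 and Bmp7 lay within 0.05 of 0 and did not pass.

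**Figure D2:**
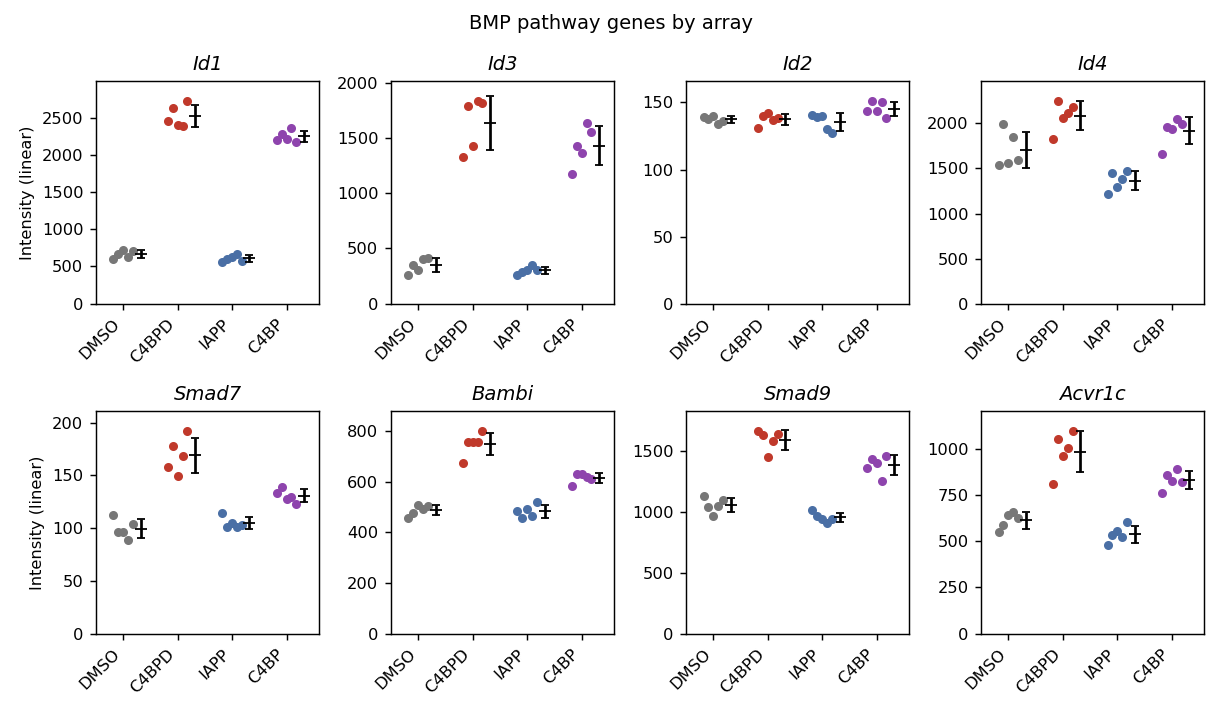
Linear intensity of 8 BMP pathway genes in each of the 20 arrays, 1 point per array, with the group mean and SD beside the points; the y axes start at 0. Id1, Id3, Smad7, Bambi, Smad9 and Acvr1c are higher in C4BPD than in DMSO with no overlap, whereas Id2 and Id4 overlap; the IAPP and C4BP arrays are shown for the same agent beside IAPP.

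Promoter sequence was set beside these values to show which of the changed genes carry a known SMAD letter pattern. RefSeq promoters (rat build GRCr8, 250 bases before to 50 after each start) were at hand for 14504 of the genes tested. GGCGCC, a palindrome bound by SMAD1 and SMAD5, occurs in 16.5% of them, in 9 of 20 BMP-SMAD target promoters and in 3 of the 6 past the threshold (Bambi, Smad7 and Smad9). It was absent from this window in Id1 and Id3, and 39 of 166 promoters of higher genes held it (23.5%) against 23 of 112 of lower genes (20.5%). The Bambi and Smad9 matches are shown in capitals with 11 bases on each side, 74 and 15 bases before the start.
Bambi (chr17:58821061-58821088, minus strand): ccgacactgacGGCGCCcgggcttatgc
Smad9 (chr2:141106642-141106669, plus strand): cacggccgcctGGCGCCcttccagcgcg
GTCTAGAC, a palindromic SMAD element found in 0.172% of the 14504 promoters, stood in 0 of the 20 BMP-SMAD target promoters. It stood in 2 of 166 promoters of higher genes and in 1 of 112 of lower genes. A match describes the letters only and is not a measured binding site.

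Several of the other top genes belong to no list. Plekhg6, an exchange factor that activates the GTPase RhoG, had 289.3, 301.2, 287.5, 310.1 and 368.8 in DMSO and 877.3, 926.9, 740.9, 863.4 and 1001 in C4BPD, well apart, and was 2.83-fold higher (limma adjusted p = 9.05e-11). Micalcl was 1.77-fold, the calcium buffer Calb1 (calbindin) 1.67-fold, the secreted ribonuclease Rnase4 1.62-fold and the homeobox factor Barhl1 1.54-fold higher, each without overlap. Rasgrp3, an exchange factor for Ras, was the tightest of them, with 518.5 to 571.7 in DMSO and 742.0 to 755.9 in C4BPD (log2 difference 0.49, adjusted p = 2.84e-08). Clec2gl1 passed at 1.65-fold, but at intensities of 26.3 to 60.2, under the median probe set, and did not pass in 5 of the 10 fits without 1 array (highest adjusted p 0.0883).

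Metallothioneins are small cysteine-rich proteins that bind zinc and copper, and their genes are switched on by the zinc-sensing factor MTF1, as is Slc30a1, the exporter that removes zinc from the cell. Mt1 read 1957, 2577, 3051, 3159 and 2041 in DMSO and 5538, 5384, 5976, 5422 and 5565 in C4BPD. The DMSO arrays were spread over a wide range and all C4BPD arrays lay above it. The log2 difference was 1.15 (SE 0.10, limma adjusted p = 4.81e-07), and within title numbers it ran from 0.78 to 1.501. Mt1f went from 1212 ± 181 to 2412 ± 142 and Slc30a1 from 457 ± 70.2 to 723 ± 48.3, a log2 difference of 0.67 (adjusted p = 0.000223). Mt1 and Mt1f are close copies, and how far their probes tell the 2 apart was not tested. Mt2A was dim and did not pass (157 ± 11.9 and 155 ± 11.0). Of 22 measured metallothionein and zinc transporter genes, 3 were higher and 1 lower, against 1.17% and 0.765% of all genes. The lower one was the importer Slc39a14 (log2 difference -0.26, limma adjusted p = 0.0092), and the list's median was -0.026. Slc39a14 did not pass in 3 of the 5 fits without all arrays of 1 title number (highest adjusted p 0.102). Slc30a8, which loads zinc into insulin granules, was bright and had a difference of -0.02.

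Metal response elements were looked for in both forms, TGCGCNC and TGCACNC, on either strand. They occur in 21.0% and 12.9% of the 14504 promoters, and in 10 and 8 of 17 promoters of the metallothionein and zinc list. TGCGCNC stood in 25.3% of promoters of higher genes and in 24.1% of those of lower genes, and TGCACNC in 9.04% and 10.7%. The promoter of Mt1 holds 6 matches, as many as are found in only 5 promoters, Mt1 among them, and is shown for that density. The 250 bases before the start are printed, with the matches of either strand in capitals.
Mt1 (chr19:10832976-10833225, minus strand): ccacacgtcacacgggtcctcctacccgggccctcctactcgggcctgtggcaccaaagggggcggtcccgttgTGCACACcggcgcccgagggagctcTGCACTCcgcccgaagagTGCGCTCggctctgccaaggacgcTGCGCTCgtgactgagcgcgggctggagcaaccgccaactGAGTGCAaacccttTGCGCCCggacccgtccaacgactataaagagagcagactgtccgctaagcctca

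Genes of the integrated stress response and of amino acid supply were higher in C4BPD. Chac1, an enzyme that degrades glutathione and a sensitive ATF4 target, had 360.3, 397.9, 365.8, 331.2 and 292.3 in DMSO and 930.8, 653.7, 779.5, 678.0 and 762.6 in C4BPD. The groups were far apart, although the C4BPD arrays themselves varied (log2 difference 1.12, SE 0.09, limma adjusted p = 7.93e-08). Trib3, a pseudokinase that restrains ATF4, was 259 ± 36.5 and 481 ± 55.1 (1.86-fold, adjusted p = 0.000103). Of 30 measured members of the ATF4 list, 8 were higher and 0 lower, against 1.17% and 0.765% of all genes. The 8 were Chac1, Trib3, Asns (asparagine synthetase), Mthfd2 (mitochondrial folate cycle), Psat1 and Shmt2 (serine synthesis and use), and the factors Atf4 and Atf5. Atf4 itself was 3491 ± 221 in DMSO and 4288 ± 243 in C4BPD, with all C4BPD arrays above all DMSO arrays (log2 difference 0.30, adjusted p = 0.0033). Shmt2 was higher by 0.17 and did not pass in 7 of the 10 fits without 1 array (highest adjusted p 0.09). The list's median was 0.087. Ddit3 (CHOP), which a strong stress response induces, was 660 ± 60.2 and 664 ± 61.3, a log2 difference of 0.008.

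Enzymes that load amino acids onto tRNA showed the same direction. Of 19 measured aminoacyl-tRNA synthetases 5 were higher and 0 lower, against 1.17% and 0.765% of all genes, with a list median of 0.129. Cars1, for cysteine, had 891.6, 889.5, 986.5, 890.4 and 902.0 in DMSO against 1436, 1227, 1367, 1238 and 1274 in C4BPD, with no overlap (log2 difference 0.52, SE 0.05, limma adjusted p = 9.16e-07). Mars1, Iars1 and Aars1, for methionine, isoleucine and alanine, had log2 differences of 0.35, 0.32 and 0.29. Yars1, for tyrosine, was higher by 0.19, overlapped between groups and did not pass in 5 of the 10 fits without 1 array (highest adjusted p 0.0822). Among 28 amino acid transporters 3 were higher, against 1.17% of all genes: Slc1a4 (alanine, serine and cysteine), Slc7a1 (arginine and lysine) and Slc6a9 (glycine). Slc1a4 was the largest, from 806 ± 63.8 to 1388 ± 124 (1.72-fold, adjusted p = 2.6e-07). Slc36a4 was lower, by 0.16, and did not pass in 8 of the 10 fits without 1 array (highest adjusted p 0.0826).

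Promoters of the higher genes held the composite element TGATGNAA, at which ATF4 pairs with a C/EBP factor, more often than those of the lower genes, a description without a test. It occurs in 3.01% of the 14504 promoters on either strand, in 14 of 166 promoters of higher genes (8.43%) and in 1 of 112 of lower genes (0.893%). Of 17 synthetase promoters 7 hold it, including all 5 of the synthetases that passed. In the ATF4 list it stood in 6 of 26 promoters, and in 2 of the 8 genes that passed (Chac1 and Trib3). Those of Cars1, Mars1, Iars1 and Yars1 are shown with Chac1, Trib3 and Slc1a4, on the strand on which the element reads TGATGNAA, with the element in capitals. The match starts 17 bases after the start in Cars1 and 38 after it in Yars1, and before the start in the other promoters shown.
Cars1 (chr1:208225334-208225363, plus strand): tttccagaatcTGATGCAAccgcggcgccg
Mars1 (chr7:65023752-65023781, plus strand): ggagcccacgcTGATGCAAccggaacgggc
Iars1 (chr17:15193658-15193687, plus strand): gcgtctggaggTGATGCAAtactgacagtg
Yars1 (chr5:146820190-146820212, plus strand): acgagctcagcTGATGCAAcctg
Chac1 (chr3:126795953-126795982, minus strand): cctagcaggagTGATGCAAcggcggagaag
Trib3 (chr3:161275536-161275565, plus strand): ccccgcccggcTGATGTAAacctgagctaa
Slc1a4 (chr14:98761779-98761808, plus strand): tgctggctggaTGATGCAAcgctggaggcg

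**Figure D3:**
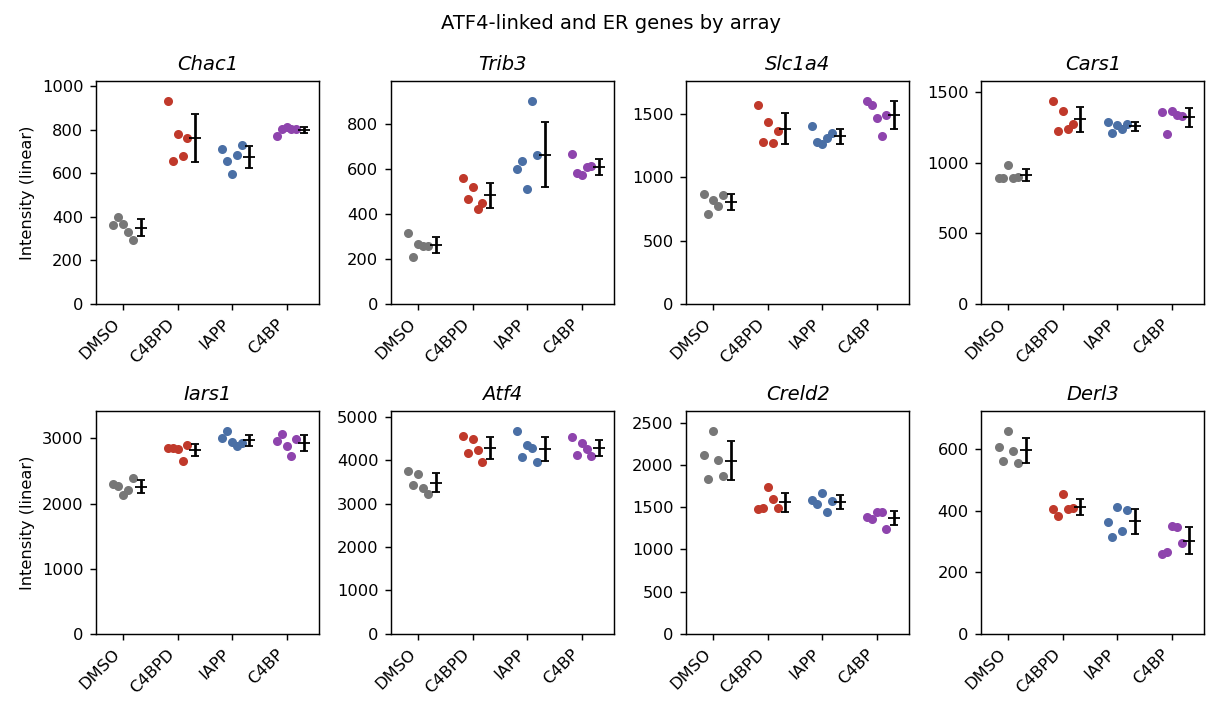
Linear intensity of 6 genes of the ATF4 and synthetase lists or amino acid transport and of the ER genes Creld2 and Derl3 in each of the 20 arrays, 1 point per array, with the group mean and SD beside the points; the y axes start at 0. C4BPD lies above DMSO without overlap in the first 6 and below it in Creld2 and Derl3.

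Chaperones of the ER were lower where they passed. Creld2, an ER folding factor, read 2111, 1834, 2395, 2052 and 1864 in DMSO and 1474, 1484, 1743, 1597 and 1487 in C4BPD, a log2 difference of -0.39 (SE 0.07, limma adjusted p = 0.002) with no overlap. Sdf2l1, a partner of the chaperone BiP, fell by the same 0.39, from 1473 ± 144 to 1118 ± 59.5. Hspa5, which encodes BiP, was among the brighter genes and fell by 0.14 (adjusted p = 0.0186), and Dnajc3 and Pdia4 by 0.32 and 0.20. In all, 5 of 34 measured chaperone and translocation genes were lower (0.765% of all genes) and 0 higher. Of the 34 differences 32 were negative, and the median was -0.086, against -0.009 over all genes. The count of 5 ran from 2, on the 10 compared arrays alone, to 11 over the settings tried by title word. In ER-associated degradation 2 of 14 were lower: Derl3, a channel component for retrotranslocation, from 595 ± 40.6 to 411 ± 26.4 (adjusted p = 0.00124), and Edem1. Without 1 array, Hspa5 and Dnajc3 did not pass in 4 of 10 fits (highest adjusted p 0.0627 and 0.062), Pdia4 in 5 (0.0987) and Edem1 in 9 (0.127).

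The ER stress response element, CCAAT and CCACG with 9 bases between them, is rare, at 0.117% of the 14504 promoters on either strand. It was found in 8 of 27 promoters of the chaperone list, in 4 of 112 promoters of lower genes (3.57%) and in 0 of 166 of higher genes. The 4 are shown on the strand on which the element reads CCAAT first, with the 2 ends and the bases between them in capitals.
Creld2 (chr7:121789228-121789268, minus strand): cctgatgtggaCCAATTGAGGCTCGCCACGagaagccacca
Derl3 (chr20:12766590-12766630, plus strand): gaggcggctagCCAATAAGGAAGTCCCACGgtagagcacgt
Dnajc3 (chr15:102432523-102432563, plus strand): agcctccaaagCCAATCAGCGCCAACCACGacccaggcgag
Hspa5 (chr3:38452962-38453002, plus strand): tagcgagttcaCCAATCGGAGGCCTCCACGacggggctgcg

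Genes linked to hypoxia and glycolysis were lower where they changed. Ankrd37, a target of the hypoxia-inducible factor, had 469.0, 506.1, 607.4, 583.4 and 575.7 in DMSO and 359.7, 338.7, 369.6, 347.3 and 321.6 in C4BPD. Every C4BPD array was below every DMSO array (log2 difference -0.65, SE 0.07, limma adjusted p = 9.06e-06). Pfkfb3 and Pfkfb4, which set the level of the activator of phosphofructokinase, fell by 0.47 and 0.33, and P4ha1, a collagen prolyl hydroxylase, by 0.48. With Pfkl and the glucose transporter gene Slc2a1, 6 of 27 measured members were lower (0.765% of all genes) and 0 higher (median -0.087). The count of 6 ran from 3, without all arrays numbered 5, to 9. Slc2a1 did not pass in 9 of the 10 fits without 1 array (highest adjusted p 0.132), and Pfkl in 4 (0.0691). Vegfa, Car9, Hk2 and Ndrg1 of the same list did not pass, with differences from 0.002 to 0.07, and neither did Ldha, at 0.16. The core of the hypoxia response element, ACGTG on either strand, stood in 31.2% of promoters of lower genes, in 20.5% of those of higher genes and in 21.8% of all 14504.

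Genes of cholesterol synthesis and uptake pointed down, although few passed. All 19 measured genes had negative log2 differences, from -0.30 to -0.04 with a median of -0.149, against -0.009 over all genes. Of the 19, 5 passed (3 to 12 over the settings tried by title word), where 0.765% of all genes were lower. Insig1, an ER protein of the sterol response, read 1799, 2080, 2075, 2109 and 2225 in DMSO and 1581, 1658, 1713, 1676 and 1712 in C4BPD (limma adjusted p = 0.00584). The enzymes Msmo1, Dhcr7, Mvd and Idi1 fell by 0.28, 0.26, 0.25 and 0.25. Idi1 did not pass in 6 of the 10 fits without 1 array (highest adjusted p 0.08). None of 15 genes of fatty acid synthesis passed (median -0.055). In fatty acid oxidation, Cpt1a, the carnitine palmitoyltransferase that admits fatty acids to mitochondria, was the single gene of 19 to pass (1.24-fold higher, adjusted p = 0.00334).

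Of 17 measured iron genes 2 were lower, against 0.765% of all genes. Tfrc, the transferrin receptor, was 5866, 5885, 5973, 5608 and 6063 in DMSO and 4290, 4543, 4637, 4281 and 4410 in C4BPD, a log2 difference of -0.41 (SE 0.03, limma adjusted p = 3.53e-07) and a wide gap between the groups. Slc11a2, the divalent metal transporter, fell by 0.17 (adjusted p = 0.013). It did not pass in 4 of the 5 fits without all arrays of 1 title number (highest adjusted p 0.104). The other 15 measured iron genes did not pass, among them the ferritins Fth1 and Ftl1, at 0.03 and 0.05. Of 22 antioxidant genes driven by NRF2, 2 were higher, against 1.17% of all genes. Nqo1 was 1.37-fold higher (810 ± 69.2 and 1105 ± 65.3, limma adjusted p = 0.000662), and the exporter Abcc4 was higher by 0.22. Abcc4 did not pass in 4 of the 10 fits without 1 array (highest adjusted p 0.0775). Heme oxygenase, Hmox1, did not pass (244 ± 7.32 and 260 ± 14.7).

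A few chemokine and NF-kB genes rose in small steps. Cxcl10 and Cxcl11, ligands of CXCR3, went from 1014 ± 72.7 to 1262 ± 56.7 and from 566 ± 27.0 to 718 ± 67.9 (limma adjusted p = 0.00313 and 0.00401). With Relb and Nfkbiz, 4 of 30 were higher (1.17% of all genes) and 0 lower (median 0.026). Nfkbiz did not pass in 9 of the 10 fits without 1 array (highest adjusted p 0.106). None of 24 interferon-stimulated genes passed. Among 32 immediate early genes 5 were higher, against 1.17% of all genes: Phlda1 (1.47-fold), Jund, Klf6, Arc and Nr4a2. The last of these did not pass in 4 of the 10 fits (0.0645). Without all arrays numbered 2, the 5 became 1. Fos, Egr1 and Atf3 did not pass, with differences of -0.02, 0.09 and 0.04. Phlda1 was also the single one of 12 ERK feedback genes to pass.

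Few transcripts of beta-cell function passed. None of 16 identity transcription factors and none of 15 genes of insulin, IAPP and prohormone processing passed, with medians of -0.04 and 0.015. Ins1 was 5978 ± 634 in DMSO and 6088 ± 697 in C4BPD, Ins2 4719 ± 410 and 4673 ± 908, and Iapp 11841 ± 523 and 11854.5 ± 263. Mafa, a factor that drives insulin transcription, had a difference of -0.16 that did not pass (adjusted p = 0.348). Of 20 genes of glucose sensing, channels and exocytosis, 2 receptors were lower, against 0.765% of all genes. Gpr119, a lipid receptor that raises cAMP, read 2785, 2920, 3202, 2892 and 3190 in DMSO against 2402, 2111, 2360, 2127 and 2292 in C4BPD (log2 difference -0.41, limma adjusted p = 0.000725). The muscarinic receptor Chrm4 fell by 0.45 with overlap between the groups (adjusted p = 0.0106). It did not pass in 3 of the 5 fits without all arrays of 1 title number (highest adjusted p 0.0972).

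The lower genes outside the lists were of mixed function. Aqp5, a water channel, had the largest fall, from 546 ± 63.7 to 345 ± 35.1 (log2 difference -0.66, limma adjusted p = 4.88e-05). The cotransporter Slc12a2 fell by 0.49, the GTPase Rnd1 and Lrp2bp by 0.46, the deiodinase Dio1 by 0.45, the glutamate decarboxylase Gad1 by 0.44, and Hs3st6 and Hspa12a by 0.43, each without overlap. Defa6 and Or8b9 also passed, at intensities under the median probe set, and Defa6 lost its call in 9 of the 10 fits without 1 array (highest adjusted p 0.117) and Or8b9 in 4 (0.0837).

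Reported binding partners of C4BP did not pass. Cd40 and Lrp1, reported receptors for C4BP, were 111 ± 7.95 and 105 ± 4.67, and 485 ± 43.6 and 451 ± 20.8, and none of the 10 measured genes of that list passed. None of 26 complement genes did (median -0.04); the rat genes of C4BP itself, C4bpa and C4bpb, were under the median probe set in both groups. Lists of apoptosis (17 genes), heat shock (15), DNA replication (18), Notch and Wnt targets (17), the respiratory chain (23) and TXNIP and ChREBP targets (5) had none past the threshold. In the p53 list Phlda3 was lower, by 0.32, in the clock list Ciart and Nfil3 were higher and Bhlhe40 lower, and in the autophagy list Wipi1 was higher. Nfil3 did not pass in 3 of the 5 fits without all arrays of 1 title number (highest limma adjusted p 0.126). Of 19 mitosis genes none passed, but 18 of the differences were positive, with a median of 0.065, against -0.009 over all genes. In all, 69 of the 351 genes belonged to any of the 37 pathway lists. The share of all tested genes in these lists was not counted, so nothing is read from the 69.

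**Figure D4:**
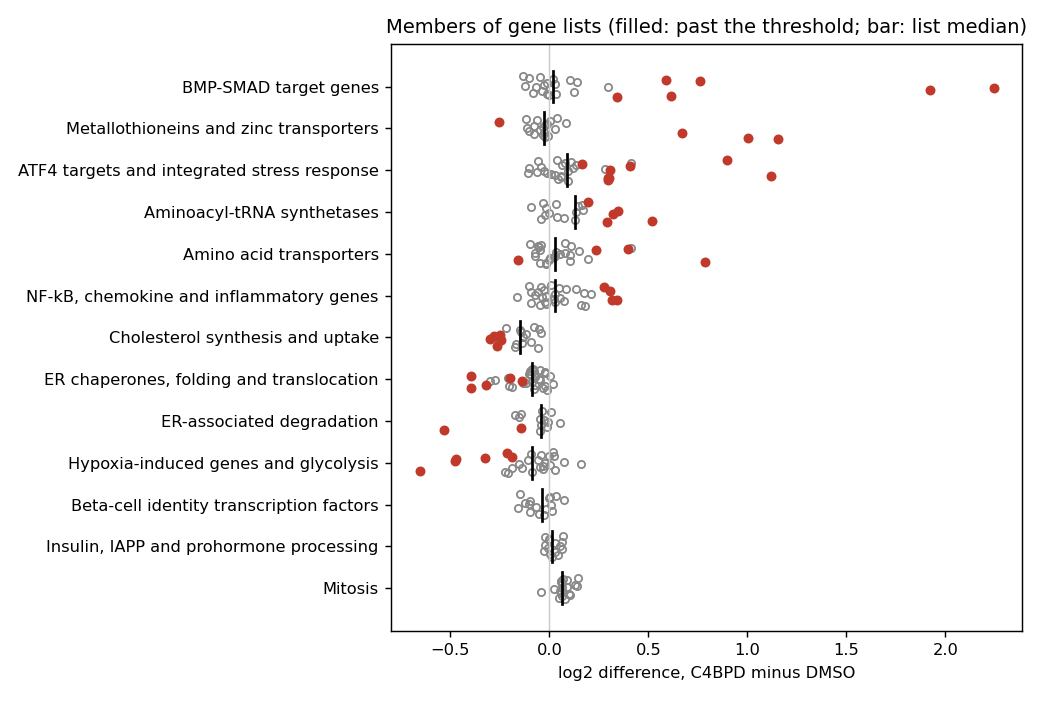
Log2 difference of C4BPD minus DMSO (x axis) for every measured member of 13 gene lists (rows), 1 point per gene; filled points passed an adjusted p of 0.05 and the bar is the list's median. The BMP target list has 6 filled points on the right and a median of 0.017, and the cholesterol list lies wholly left of 0.

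The same agent was also given beside IAPP, in 10 other arrays. C4BP against IAPP (C4BP minus IAPP) is thus a second reading of C4BP. Its log2 differences share no array with those of C4BPD against DMSO. Both tests use 1 estimate of the spread from all 20 arrays, so their calls are not separate. Fitted on their own 10 arrays, 33 genes passed in C4BP against IAPP and 208 in C4BPD against DMSO, and the overlap of these was not counted. In the fit of all 20 arrays, 110 genes passed in C4BP against IAPP (0.606%), 68 higher (0.374%) and 42 lower (0.231%). Of the genes called in each comparison 71 were called in both, with the same sign in all of them (44 higher, 27 lower). These are 20.2% of the 351 and 64.5% of the 110. Among the 212 genes higher in C4BPD, 196 were also positive beside IAPP (92.5%, against 50.8% of all genes), and among the 139 lower, 131 were negative (94.2%, against 49.2%). The median difference was 0.285 without IAPP and 0.157 beside it for the 212, and -0.251 and -0.145 for the 139; since the genes were selected on the first of each pair, nothing is read from the smaller size of the other.

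The differences of several BMP genes were close in both settings. Id3 was higher by 2.25 and Id1 by 1.89 beside IAPP, and the difference between the 2 settings was 0.0009 and -0.03 on the log2 scale (limma, SE 0.18 and 0.08). Smad9 had 0.53 against 0.59, Acvr1c 0.63 against 0.68, Atoh8 0.35 against 0.34 and Barhl1 0.61 against 0.62. Of the 25 BMP-SMAD target genes 7 were higher beside IAPP, the additional one being Id4, from 1364 ± 107 to 1921 ± 149 (adjusted p = 0.00277). Smad7 and Bambi were higher by 0.32 and 0.35 there, and the differences between the settings, -0.44 and -0.27, did not pass (limma adjusted p = 0.154 and 0.435). Tfrc fell by 0.60 beside IAPP, Nqo1 rose by 0.42, and Ankrd37 and Pfkfb3 fell by 0.56 and 0.46. Brs3, a bombesin-like receptor, Kctd8 and Rasgrp3 were higher in both, and Rgs16 and Sgtb lower in both.

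The test of the difference itself passed for 9 genes of 18166 (0.0495%, and 688 had an unadjusted limma p under 0.05). All 9 were called higher in C4BPD against DMSO and had a lower difference beside IAPP. In some it was negative there: Klf6 went from 0.25 to -0.14 and Trib3 from 0.90 to -0.10, and neither passed beside IAPP. Chac1 had means of 349 in DMSO and 761 in C4BPD, but of 675 in IAPP and 799 in C4BP, so that its log2 difference went from 1.12 to 0.25 (interaction -0.87, limma adjusted p = 0.00949). Trib3 had 259 and 481 without IAPP and 661 and 607 with it (interaction -0.997, adjusted p = 0.0221). In both genes the mean of the IAPP arrays was above that of the DMSO arrays. Slc1a4 (-0.61), Cars1 (-0.45) and Iars1 (-0.34) followed, and the remaining genes were Stap2 (-0.46), Klf6 (-0.39), Plppr1 (-0.38) and Wipi1 (-0.37). The IAPP mean was also above the DMSO mean in Slc1a4 (1325 and 806), Cars1 (1257 and 912) and Iars1 (2974 and 2259). The same held for Klf6 (1995 and 1630), Plppr1 (1720 and 1317) and Stap2 (129 and 106), but not for Wipi1 (1315 and 1434). How the level in IAPP bears on the lower differences was not tested. TGATGNAA stood in the promoters of 5 of the 9, the Chac1, Trib3, Slc1a4, Cars1 and Iars1 elements shown earlier. Of the ATF4 list 0 were higher beside IAPP and 1 lower, and of the synthetases 0 passed. Mt1, at 6984 in IAPP and 9308 in C4BP, was higher by 0.41 there and did not pass (adjusted p = 0.0746), with an interaction of -0.74 that also did not (0.0669). Without 1 array of any group the interaction count ran from 3 to 10, and was 3 without the third C4BP array or the fifth C4BPD array.

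**Figure D5:**
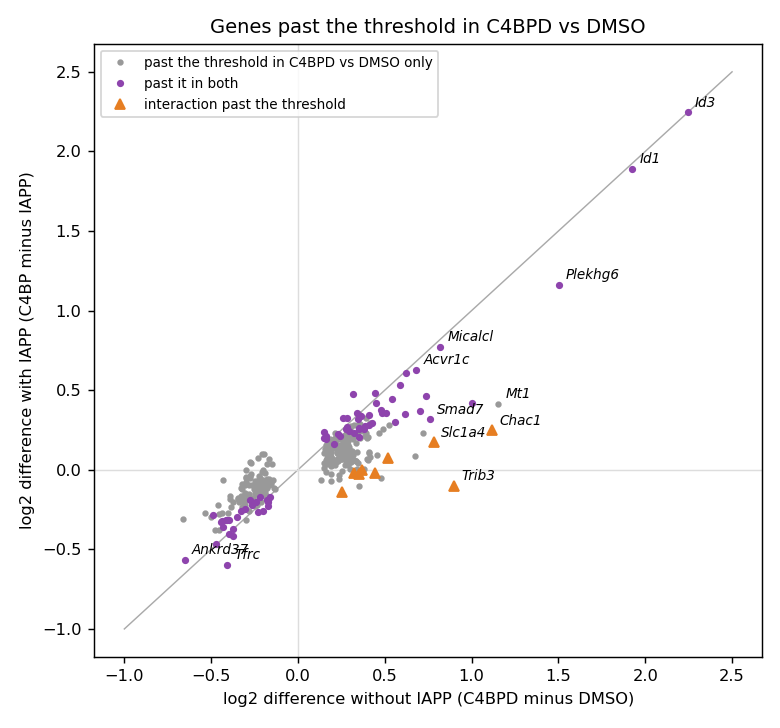
Log2 difference of C4BP without IAPP (C4BPD minus DMSO, x axis) against that with IAPP (C4BP minus IAPP, y axis) for the 351 genes called on the x axis, 1 point per gene; the diagonal marks equal differences. Purple points (71) passed in both, orange triangles are the 9 genes whose differences differed; Id1 and Id3 lie on the diagonal and Chac1, Slc1a4 and Trib3 far under it.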

How the data were processed

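RNA of 20 wells of INS-1 cells was hybridised to Affymetrix Rat Gene 2.0 arrays, 5 per title word. The deposited values are linear intensities, 1 per probe set and array; the submitters' processing notes name Affymetrix Expression Console, and the sources used here do not give the normalization algorithm, annotation or genome build. Of 36685 probe sets, 18511 had exactly 1 gene symbol (575 had several, 17599 none, 190 were controls), and the brightest per gene gave 18166 genes, 18060 of them matched to RefSeq. The array signal over background sets the precision, and no depth applies.

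Values were taken as log2 without a filter or pseudocount and without renormalization. limma 3.58.1 in R 4.3.3 fitted 4 group means to all 20 arrays (lmFit and eBayes, 16 residual degrees of freedom), with C4BPD minus DMSO as the comparison, C4BP minus IAPP and the difference of both beside it; p-values are two-sided and Benjamini-Hochberg adjusted over all genes, with a threshold of 0.05. In data simulated for C4BPD against DMSO over 18166 genes, the fit recovered 54% of 50 genes changed by 0.25 on the log2 scale and 98% of 50 changed by 0.5.

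Genes named are the 15 largest differences past the threshold in each direction, up to 6 members per list by p, the 15 shared genes with the smallest p in C4BP against IAPP, the genes past the test of the difference between settings, and a set of fixed genes; Mthfd2, Shmt2 and list members that did not pass were added to these. The members and lists, 37 of pathways and 8 of cell types, were chosen with earlier results of these data known. Of 875 list entries, 774 were measured, and the others are not analysed here. Means and SDs are over linear intensities, and "dim" means under the median of all probe sets. Promoters are RefSeq sequences of GRCr8 and were searched on both strands. Title numbers were checked as pairs: the deviations of same-numbered C4BPD and DMSO arrays correlated at 0.249, 0.066, 0.249, -0.109 and 0.18. The highest correlation with a DMSO array of another number was 0.012, 0.046, 0.008, 0.071 and 0.232. Thus 3 of the 5 C4BPD arrays went best with their own number. The main model has no block, and the block was fitted as an alternative. Alternatives were other models, scalings, filters, groupings and sets of arrays.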

Additional observations from a re-analysis of the deposited data

Results flagged for a closer look

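Single arrays stood apart from the other 4 of their group, by Dixon's ratio over its 95% critical value of 0.71, in 13 of 214 groups tested, where chance gives about 1 in 20, or 10.7. Among BMP and other top genes these were Plekhg6 in DMSO 5 (368.8, highest), Atoh8 in C4BPD 4 (283.1, lowest) and Barhl1 in C4BPD 1 (1723, highest). Among genes of amino acid supply they were Psat1 and Cars1 in DMSO 3 (5379 and 986.5, both highest), Aars1 in DMSO 5 (2354, highest) and Iars1 in C4BPD 4 (2657, lowest). The glycolysis regulator Pfkfb3 was highest in DMSO 5 (1139) and in C4BPD 1 (777.7). Nfkbiz was lowest in C4BPD 1 (311.3) and Txnip in C4BPD 3 (2545). Ins1 was highest in both arrays numbered 1, at 7092 in DMSO and 7290 in C4BPD. Of the 13, 4 were in C4BPD 1 and 3 in DMSO 5.

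The log2 difference between title groups with and without C4BP was lower beside IAPP than without it, by limma's test of the difference itself, in 9 genes: Trib3 (-1.0), Chac1 (-0.87), Slc1a4 (-0.61), Stap2 (-0.46), Cars1 (-0.45), Klf6 (-0.39), Plppr1 (-0.38), Wipi1 (-0.37) and Iars1 (-0.34). In all of them but Wipi1 the mean of the IAPP arrays was above that of the DMSO arrays.

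Outside the 18166 genes, 17984 probe sets with no symbol or several were fitted in the same way, and 33 passed the threshold in C4BPD against DMSO, 22 higher and 11 lower. They carry no gene name here.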

How the results depend on the processing

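In C4BPD against DMSO 351 genes passed. The title number as a block gave 797, and all 351 were among them. By the correlation of deviations, 3 of the 5 C4BPD arrays went best with the DMSO array of their own number. The numbers thus paired the arrays in part, and the main count of 351 leaves that pairing out. On the 10 compared arrays alone 208 passed, and 238 with the block. Centring arrays on their median gave 221, array weights 644 and all probe sets 226; quantile normalization (320), genes above the median probe set (470) and a variance trend (415) stayed within 1.5 times. Leaving out 1 array gave 217 to 386, and leaving out all arrays of numbers 1 to 5 gave 299, 173, 167, 170 and 151. In C4BP against IAPP, 110 passed; the block gave 352, centring 70, genes above the median probe set 202, its 10 arrays alone 33, and leaving out 1 array 58 to 97. It was 58, 66 and 67 without IAPP 3, 2 and 4, and 64 and 73 without C4BP 4 and 5. The test of the difference between settings passed for 9 genes, for 18 with the block, for 7 to 13 in the other models, scalings and filters, and for 3 to 10 without 1 array. Grouping by the treated-with field left 0, 0 and 0 genes (881, 553 and 929 at an unadjusted limma p under 0.05).

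Of 92 named genes that passed, 53 passed under every setting but that field; 19 were lost without some single array, 36 without all arrays of some number and 31 under another setting. No named gene changed sign except under the field, where none of the 92 passed and these 75 turned (log2): Id3 -0.72, Id1 -0.73, Plekhg6 -0.40, Mt1 -0.22, Chac1 -0.088, Mt1f -0.21, Micalcl -0.32, Slc1a4 -0.18, Smad7 -0.11, Calb1 -0.30, Rnase4 -0.10, Acvr1c -0.21, Slc30a1 -0.001, Aqp5 0.19, Ankrd37 0.20, Derl3 0.15, Defa6 0.27, Slc12a2 0.20, P4ha1 0.028, Pfkfb3 0.18, Rnd1 0.12, Lrp2bp 0.13, Chrm4 0.27, Dio1 0.050, Gad1 0.14, Hs3st6 0.10, Hspa12a 0.17, Or8b9 0.061, Bmp3 0.053, Bambi -0.13, Smad9 -0.20, Atoh8 -0.23, Bhlhe40 0.034, Slc39a14 0.056, Psat1 -0.10, Asns -0.092, Atf5 -0.059, Atf4 -0.048, Cars1 -0.064, Aars1 -0.023, Iars1 -0.014, Mars1 -0.086, Yars1 -0.092, Slc7a1 -0.069, Slc6a9 -0.030, Slc36a4 0.040, Nqo1 -0.11, Tfrc 0.22, Slc11a2 0.028, Msmo1 0.035, Dhcr7 0.054, Mvd 0.084, Insig1 0.031, Idi1 0.023, Sdf2l1 0.001, Hspa5 0.029, Pfkfb4 0.043, Pfkl 0.019, Cxcl10 -0.037, Relb -0.006, Phlda1 -0.12, Arc -0.017, Gpr119 0.12, Phlda3 0.25, Ciart -0.047, Nfil3 -0.054, Barhl1 -0.28, Rasgrp3 -0.13, Kctd8 -0.14, Brs3 -0.11, Rgs16 0.083, Sgtb 0.10, Plppr1 -0.004, Mthfd2 -0.070 and Shmt2 -0.018. The number of arrays limits the precision, and genes under the median probe set, such as Smad7, Stap2 and Clec2gl1, were read with the least signal.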
